A study of Nicotiana benthamiana with 9 samples.

Results

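The petL, petG, psaJ, rpl33 and rps18 genes follow one another on the plus strand of the Nicotiana benthamiana plastid genome. They were taken from the count table by name, 5 rows of 106, and all 5 passed the filter on low counts. The cluster was chosen by measured values of these libraries: the group differences of petL, low with the vector pMDC32, and of rpl33, high with both vectors, were known. The differences of the 5 genes between the vector groups and the control are therefore given as a description, without a p-value.

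The leaves were wild type and were infiltrated to express proteins transiently. One group (pMDC32, 3 libraries) expressed dPPRerpl2 from pMDC32 together with P19, and another (pGWB2, 3 libraries) expressed dPPRerpl2 from pGWB2 together with P19. The control (P19, 3 libraries) expressed P19 alone, so every leaf carried P19, a viral suppressor of RNA silencing. dPPRerpl2 is a designed RNA editing factor built from pentatricopeptide repeats, RNA-binding modules of organelle proteins, and its name points to the plastid gene rpl2. The sample titles write the vectors as PWB2 and PMDC32. They label replicate 1 of each group 2 days post infiltration (dpi) and replicates 2 and 3 as 3 dpi, whereas the series text states 3 dpi throughout, so day and replicate number cannot be told apart. Vector promoters and plants per library were not given in the sources used here.

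Plastid genes of this region encode small parts of 3 machines. PetL and PetG are short membrane-spanning subunits of the cytochrome b6f complex, which passes electrons between the photosystems, and PsaJ is a small subunit of photosystem I. Rpl33 and Rps18 are proteins of the large and small subunits of the plastid ribosome. In tobacco, PetG is needed for the b6f complex to accumulate, PetL contributes to its stability, Rps18 is essential, and Rpl33 becomes necessary in the cold. Plastid genes are often transcribed together and then cut and trimmed into smaller RNAs whose ends are guarded by pentatricopeptide repeat proteins. In maize, PPR10 binds between psaJ and rpl33, and in Arabidopsis, PGR3 acts on the petL transcripts.

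In the table's coordinates (build not given in the sources used here) these 5 rows span 2523 nt. The petL row runs from 68008 to 68103, petG from 68287 to 68400, psaJ from 69272 to 69406, rpl33 from 69838 to 70038 and rps18 from 70225 to 70530. Their lengths are 96, 114, 135, 201 and 306 nt, whole numbers of codons, so these are coding lengths. Between them lie 183 nt (petL to petG), 871 nt (petG to psaJ), 431 nt (psaJ to rpl33) and 186 nt (rpl33 to rps18). The widest gap holds the tRNA genes trnW and trnP on the minus strand. Upstream are psbE, psbF, psbL and psbJ of photosystem II on the minus strand, and downstream is rpl20, also on the minus strand.

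Libraries held 32457135 to 44392760 counted reads, and the 5 rows together took 0.498% to 0.680% of them. The smallest count of any of the 5 was 9862 (rpl33 in P19 replicate 1), with an exact Poisson 95% interval of 9668 to 10059, so counting error was small beside the spread between libraries. Of the counted reads, psbA took 44.0% to 61.1% and rbcL 10.4% to 17.1%. Almost all rows are plastid rows, so these shares do not tell from which tissue the RNA came. P19 replicate 1 stood apart, with the highest psbA share and a TMM scaling factor of 0.742, against 0.956 to 1.09 in the other 8. Levels are given as CPM, counts scaled to a common library size with TMM factors. In bulk leaf RNA, fewer cells with a transcript and less transcript per cell cannot be told apart. The editor transcript was at 2599, 9675 and 6197 CPM in pMDC32 replicates 1 to 3, at 1221, 4266 and 4236 CPM in pGWB2, and at 0.290 CPM or less in P19.

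Per length, psaJ was the highest of the 5 genes and the ribosomal protein genes the lowest. In CPM per kb of gene row, psaJ ranged from 18135 to 42609 over the 9 libraries, with a median of 24077. The petG row followed (5217 to 11255, median 6163), then petL (3900 to 10560, median 5587), rps18 (2327 to 2983, median 2629) and rpl33 (1843 to 2550, median 2299). The psaJ level was 3.47 to 4.29 times that of petG within a library. The log2 ratio of petG to petL ran from -0.03 to 0.50, and petG was the higher in 7 of 9 libraries, so these neighbours in the order were not apart in every library. The petL level per length exceeded that of rps18 in 9 of 9 libraries, and rps18 exceeded rpl33 in 9 of 9, by 1.09 to 1.30 times.

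Part of this order rests on the length correction. The rows are short, and a fragment that only touches a row may count for it, which favours the shortest rows. With 150 nt added to each length, an alternative chosen after seeing the data, petL was above rps18 in 6 of 9 libraries, and by reads alone in 1 of 9. With the added length, the libraries with petL below rps18 were those of pMDC32. There petL had 1642, 1522 and 1696 CPM per kb and rps18 1831, 1955 and 2002, so this change went with the group. The count for petG above petL also moved, to 9 of 9 libraries under both alternatives. For psaJ above petG and rps18 above rpl33 it was 9 of 9 with all 3 lengths. Among the reads of the 5 rows, psaJ took 50.7% to 62.8%.

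**Figure D1:**
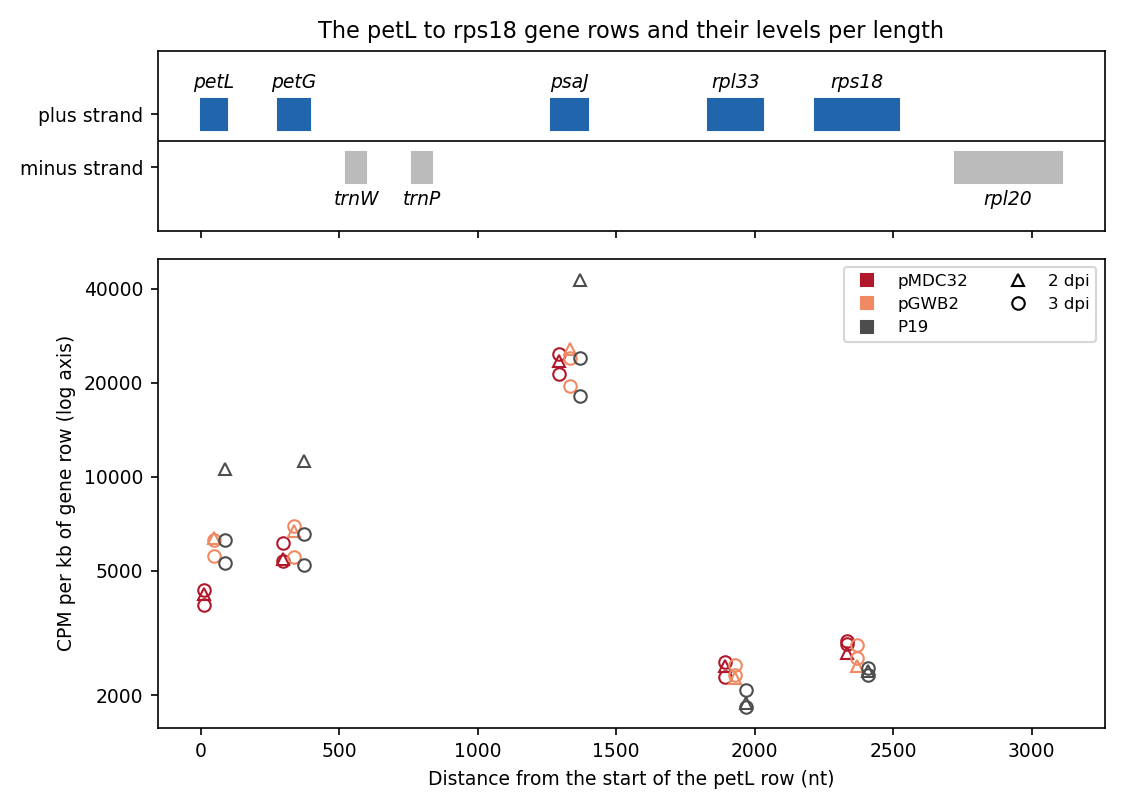
Top, the 5 gene rows (blue) and the minus-strand rows near them (grey) by distance from the start of petL in nt. Bottom, the level of each of the 5 genes in each library in CPM per kb on a log axis, with groups side by side at the gene's position: psaJ is the highest gene, P19 replicate 1 (grey triangle) is high for petL, petG and psaJ, and the pMDC32 libraries are the lowest 3 for petL.

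The petL transcript was lower in every pMDC32 library than in every other library. It stood at 404, 374 and 417 CPM in pMDC32 replicates 1 to 3, at 611, 605 and 536 CPM in pGWB2 replicates 1 to 3, and at 1014, 510 and 604 CPM in P19 replicates 1 to 3. The pGWB2 libraries lay within the range of the P19 libraries. With n = 3 each, mean petL was 399 ± 21.9 CPM (SD) in pMDC32, 584 ± 41.4 in pGWB2 and 709 ± 268 in P19.

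Against P19 the petL log2 difference was -0.83 with pMDC32 (SE 0.24, 95% interval -1.37 to -0.30) and -0.28 with pGWB2 (SE 0.24, -0.81 to 0.25). Without P19 replicate 1 these were -0.41 and 0.095. Against pGWB2 the pMDC32 difference was -0.55 (SE 0.24, -1.08 to -0.02), and without P19 replicate 1, which enters the spread of this fit, -0.50. In both pMDC32 comparisons petL ranked 2 of 105 plastid rows from the lowest. It was the 1 plastid row whose pMDC32 libraries all lay below all pGWB2 libraries (0.952% of rows), and it belonged to 10 rows whose pMDC32 libraries all lay below all P19 libraries (9.52%). None of the 5 genes was among the 2 rows with all pMDC32 above all pGWB2 libraries (1.9%), or the 8 with all pGWB2 below all P19 libraries (7.62%). Under 3 other scalings (RLE factors, library totals, and totals without psbA) petL was still separated from P19 and from pGWB2 in this way. The plastid rows with all pMDC32 below all P19 libraries then numbered 7, 1 and 9. Those with all pMDC32 below all pGWB2 libraries numbered 2, 2 and 1, so petL was not the only such row under every scaling. Since these contrasts chose the gene, the intervals and the shares are a description. By edgeR's test, 0 plastid rows (0%) had an adjusted p under 0.05 in each of these 3 comparisons, while 6 (pMDC32 against P19), 6 (pGWB2 against P19) and 1 (pMDC32 against pGWB2) had an unadjusted p under 0.05. DESeq2 called 1, 1 and 0 rows, and limma-voom called 0 in each.

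The editor transcript averaged 6157 ± 3538 CPM in pMDC32 and 3241 ± 1750 CPM in pGWB2 (SD, n = 3 each), with overlapping ranges. Sequencing lane also differed: replicates 1 to 3 came from lanes 8, 8 and 5 in pMDC32, only from lane 4 in pGWB2, and from lanes 8, 4 and 4 in P19. The part of either in the petL level was not tested. Within lane 8, the petL log2 difference of pMDC32 replicates 1 and 2 from P19 replicate 1 was -1.38. P19 replicate 1, high in petL, was the only control of that lane, so lane and that library cannot be told apart. Over all lanes and without that library, the pMDC32 difference from P19 was -0.41. Within lane 4, the petL log2 difference of the 3 pGWB2 libraries from P19 replicates 2 and 3 was 0.071. No lane held both vectors.

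The petG transcript did not separate the groups. It stood at 624, 616 and 703 CPM in pMDC32 replicates 1 to 3, at 767, 791 and 631 CPM in pGWB2, and at 1283, 595 and 749 CPM in P19. One P19 library was the lowest and another by far the highest. The log2 difference from P19 was -0.44 with pMDC32 (SE 0.26) and -0.26 with pGWB2 (SE 0.26), and without P19 replicate 1 it was 0.021 and 0.15. Between the vectors petG differed by -0.17 on the log2 scale (SE 0.26).

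The psaJ transcript, of photosystem I, did not separate the groups. It stood at 3170, 2869 and 3330 CPM in pMDC32 replicates 1 to 3, at 3471, 3251 and 2633 CPM in pGWB2, and at 5752, 2448 and 3250 CPM in P19. All 3 groups overlapped. Its log2 difference was -0.29 with pMDC32 (SE 0.28) and -0.29 with pGWB2 (SE 0.28) against P19, and 0.21 and 0.16 without P19 replicate 1, so the sign rested on that library. Between the vectors it was 0.00 (SE 0.28, 95% interval -0.62 to 0.63). Within lane 8 the pMDC32 log2 difference from P19 replicate 1 was -1.05 for petG and -0.93 for psaJ. As that is the only P19 library of lane 8, lane and that library cannot be told apart there. With lane as covariate, the pMDC32 minus pGWB2 difference was -1.45 for petL, -1.17 for petG and -1.06 for psaJ. Since no lane held both vectors, that value passes through the P19 libraries of lanes 8 and 4, with P19 replicate 1 alone in lane 8.

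The rpl33 transcript, for a protein of the large ribosomal subunit, was higher in all 6 editor libraries than in all 3 P19 libraries. It stood at 499, 513 and 462 CPM in pMDC32 replicates 1 to 3, at 457, 467 and 502 CPM in pGWB2, and at 380, 370 and 419 CPM in P19. The vectors overlapped with each other. The log2 difference from P19 was 0.33 with pMDC32 (SE 0.13, 95% interval 0.05 to 0.62) and 0.29 with pGWB2 (SE 0.13, -0.00 to 0.58). Without P19 replicate 1 it was 0.39 and 0.30, so that library did not set it. Both comparisons use the same P19 libraries.

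The rps18 transcript, for a protein of the small ribosomal subunit, showed the same separation with smaller differences. It stood at 835, 892 and 913 CPM in pMDC32 replicates 1 to 3, at 757, 804 and 890 CPM in pGWB2, and at 733, 712 and 749 CPM in P19. The lowest pGWB2 library and the highest P19 library were close. The log2 difference from P19 was 0.27 with pMDC32 (SE 0.13, 95% interval -0.02 to 0.55) and 0.16 with pGWB2 (SE 0.13, -0.12 to 0.44), and without P19 replicate 1 it was 0.34 and 0.19. Rows whose pMDC32 libraries all lay above all P19 libraries numbered 3 of 105 (2.86%), with rpl33 and rps18 among them, and for pGWB2 they numbered 6 (5.71%), again with both genes. The 3 other scalings (RLE factors, library totals, and totals without psbA) kept rpl33 and rps18 apart from P19 for both vectors. The rows above P19 then numbered 7, 9 and 3 for pMDC32, and 7, 10 and 4 for pGWB2.

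**Figure D2:**
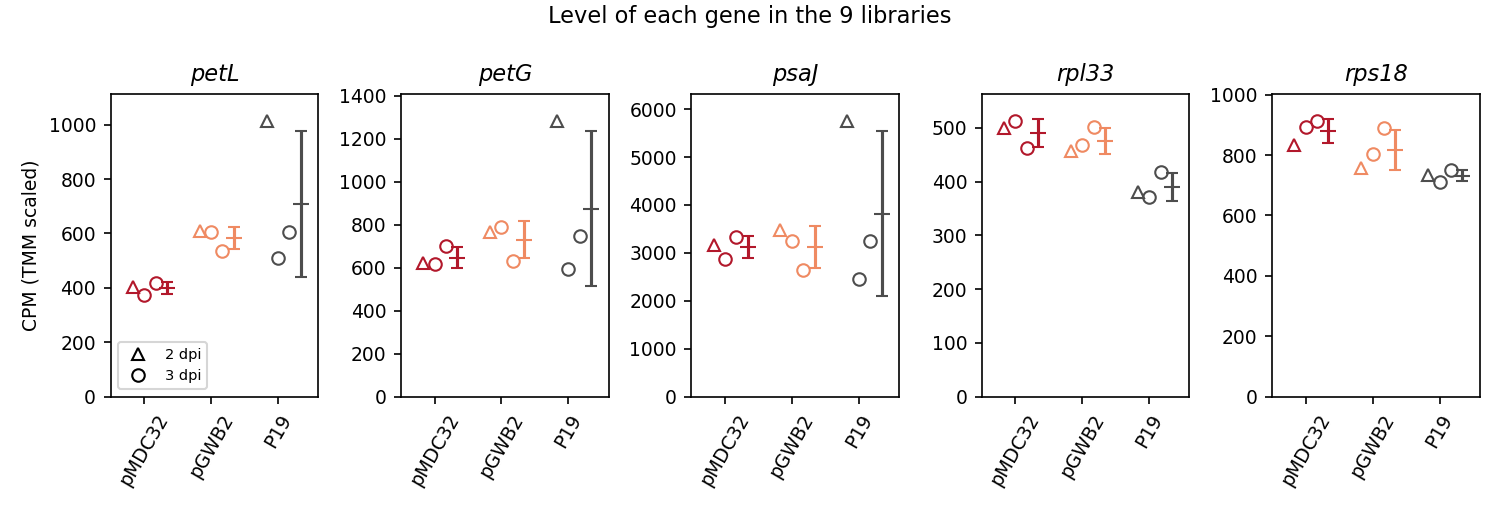
Level of each gene in CPM (axis from 0) in the 3 libraries of each group in replicate order, triangles for 2 dpi and circles for 3 dpi, with the mean and SD beside them. The pMDC32 points of petL (374 to 417 CPM) lie under all others, the P19 points of rpl33 and rps18 lie under all editor points, and P19 replicate 1 is the highest point for petL, petG and psaJ.

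**Figure D3:**
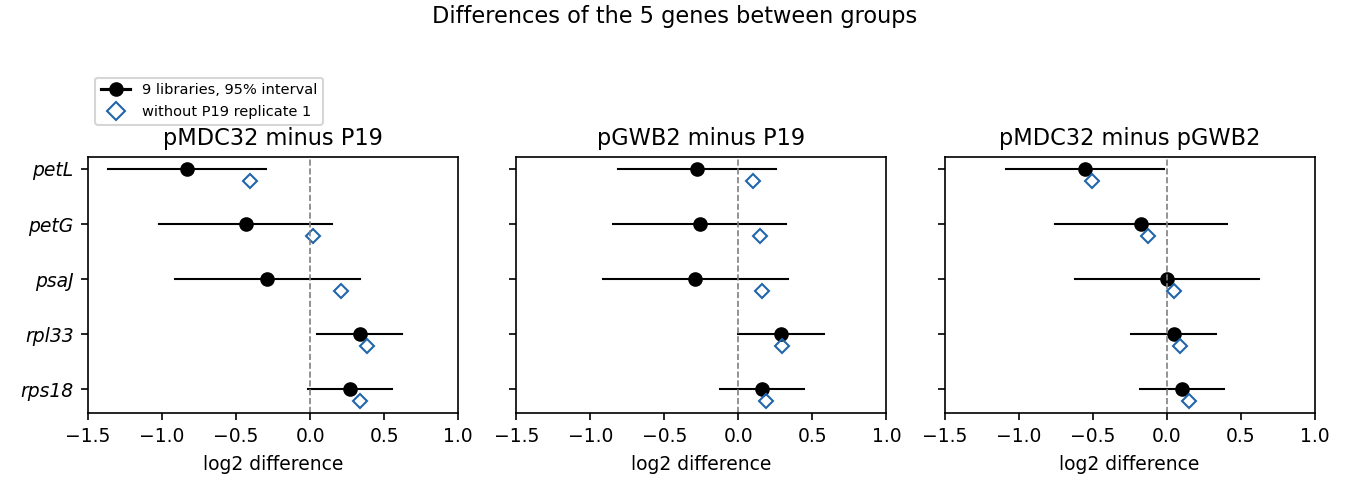
Log2 difference of each gene in 3 comparisons, with 95% intervals from the fit of 9 libraries (black) and the value without P19 replicate 1 (blue diamonds). Leaving out that library brings petL with pMDC32 to -0.41, turns petG and psaJ (both vectors) and petL (pGWB2) to the other side of 0 against P19, and moves rpl33 and rps18 by little.

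The scaling moved all genes together. With TMM factors the median plastid row differed by -0.11 on the log2 scale between pMDC32 and P19, and with library totals by 0.11. With TMM, petL, petG and psaJ with pMDC32 (-0.83, -0.44 and -0.29) lay below that median, and rpl33 and rps18 (0.33 and 0.27) above it. For this reason the neighbours were also compared within each library, where scaling cancels.

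The ratio of petG to petL per length set the pMDC32 libraries apart. On the log2 scale it was 0.38, 0.47 and 0.50 in pMDC32 replicates 1 to 3, 0.080, 0.14 and -0.01 in pGWB2, and 0.092, -0.03 and 0.061 in P19. The pMDC32 range did not overlap with the other 6 libraries, P19 replicate 1 included, which was high in both genes and ordinary in their ratio. The mean log2 ratio was 0.45 ± 0.06 in pMDC32, 0.069 ± 0.076 in pGWB2 and 0.043 ± 0.061 in P19 (SD, n = 3 each). The pMDC32 mean lay 0.41 above P19 (0.43 without P19 replicate 1, and 0.33 within lane 8) and 0.38 above pGWB2.

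The ratio of psaJ to petG did the same on a smaller scale. On the log2 scale it was 2.10, 1.98 and 2.00 in pMDC32 replicates 1 to 3, 1.93, 1.80 and 1.82 in pGWB2, and 1.92, 1.80 and 1.87 in P19. The lowest pMDC32 value was 1.98 and the highest of the other 6 was 1.93. The log2 mean of pMDC32 lay 0.16 above P19 (0.19 without P19 replicate 1, and 0.12 within lane 8) and 0.18 above pGWB2. Of 62 pairs of neighbouring rows on 1 strand within 1000 nt, 3 (4.84%) had a ratio that set all pMDC32 libraries apart from the other 6, and petL with petG and petG with psaJ were 2 of them. The petL difference chose these genes, so the ratios to petL are not independent of it. Against petN, another short cytochrome b6f gene, the petL log2 ratio averaged -2.46 in pMDC32, -1.87 in pGWB2 and -1.87 in P19. The pMDC32 libraries again lay below the other 6, by -0.59 against P19, and by -0.27 within lane 8.

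Across the gap from psaJ to rpl33, the ratio was wide in P19 and gave no separation of groups. The log2 ratio of rpl33 to psaJ was -3.24, -3.06 and -3.42 in pMDC32 replicates 1 to 3, -3.50, -3.37 and -2.96 in pGWB2, and -4.49, -3.30 and -3.53 in P19. P19 replicate 1 was the lowest. The log2 mean of pMDC32 lay 0.53 above P19, 0.17 above without that library, and 1.34 above within lane 8, where that library is the control. That of pGWB2 lay 0.50 above P19, and 0.14 within lane 4, which is also the value without P19 replicate 1.

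The ratio of rps18 to rpl33 was narrow. On the log2 scale it was 0.14, 0.19 and 0.38 in pMDC32 replicates 1 to 3, 0.12, 0.18 and 0.22 in pGWB2, and 0.34, 0.34 and 0.23 in P19. Every pGWB2 library lay below every P19 library, by 0.13 on the log2 scale between means (-0.13), while pMDC32 overlapped with both. Of the 62 neighbouring pairs, 8 (12.9%) had pGWB2 and P19 libraries apart in this way.

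**Figure D4:**
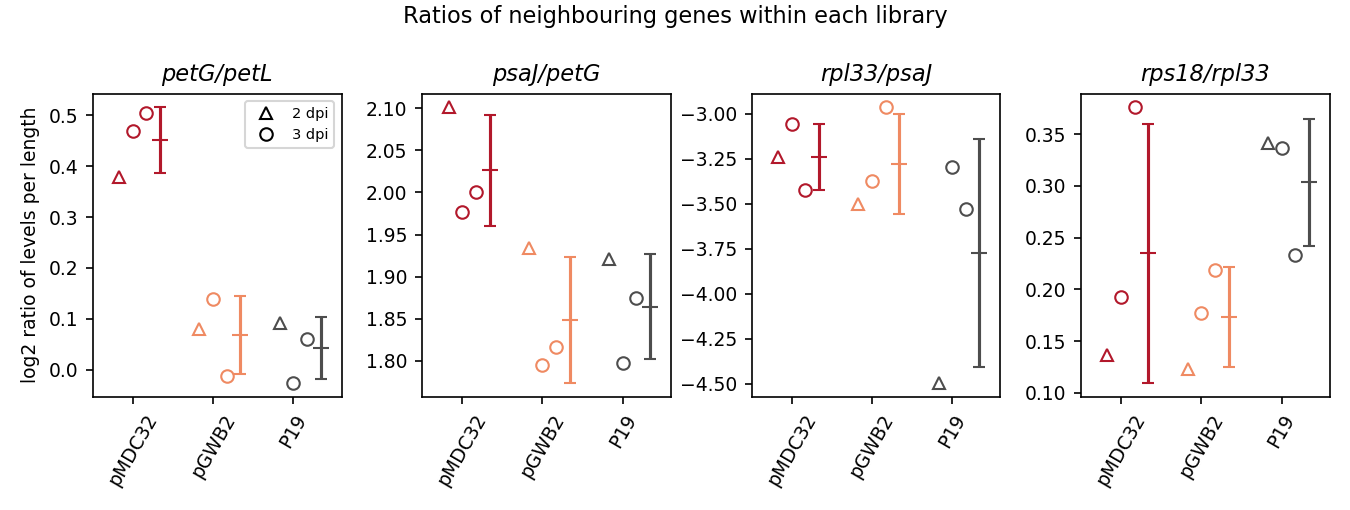
Log2 ratio of the levels per length of neighbouring genes in each library (triangles 2 dpi, circles 3 dpi, mean and SD beside them; each panel has its own axis). The 3 pMDC32 libraries stand above the other 6 for petG/petL (0.38 to 0.50) and psaJ/petG (1.98 to 2.10), and P19 replicate 1 stands alone at -4.49 for rpl33/psaJ.

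How steadily a pair of genes kept its ratio was measured as the SD of their log2 ratio over the 9 libraries, which needs no scaling. The smallest SD among the 10 pairs of the 5 genes was that of rpl33 with rps18 (0.093), followed by petG with psaJ (0.10) and petL with petG (0.21). The pair psaJ with rpl33 had 0.44, and petL with rpl33 had the largest (0.56). For comparison, the median was 0.37 over all 5460 pairs of plastid rows and 0.17 over the 62 neighbouring pairs. Over 9 libraries, each pair within petL, petG and psaJ, and the pair rpl33 with rps18, had a smaller SD than each pair across the psaJ to rpl33 gap. This division rested on P19 replicate 1: without it psaJ with rpl33 had 0.20, less than petL with petG (0.22) and petL with psaJ (0.31). Without that library the median of all pairs was 0.25, rpl33 with rps18 had 0.090 and petG with psaJ had 0.11.

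P19 replicate 1 was 1.82 times the mean of P19 replicates 2 and 3 for petL, 1.91 for petG and 2.02 for psaJ. For rpl33 it was 0.963 and for rps18 1.0, against a median of 0.973 over 105 rows. In 50 of the 105 rows it was above 1. The petN row stood at 4172 CPM in P19 replicate 1, and at 1499 and 1991 CPM in replicates 2 and 3. Such a rise was therefore not particular to petL, petG and psaJ. Over the 9 libraries the SD of log2 CPM was 0.43 for petL, 0.34 for petG and 0.35 for psaJ, and 0.17 for rpl33 and 0.14 for rps18, with a median of 0.27 over all plastid rows. Without P19 replicate 1 it was 0.29 for petL, while petG and psaJ (0.16 and 0.18) were then close to the median of 0.17.

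**Figure D5:**
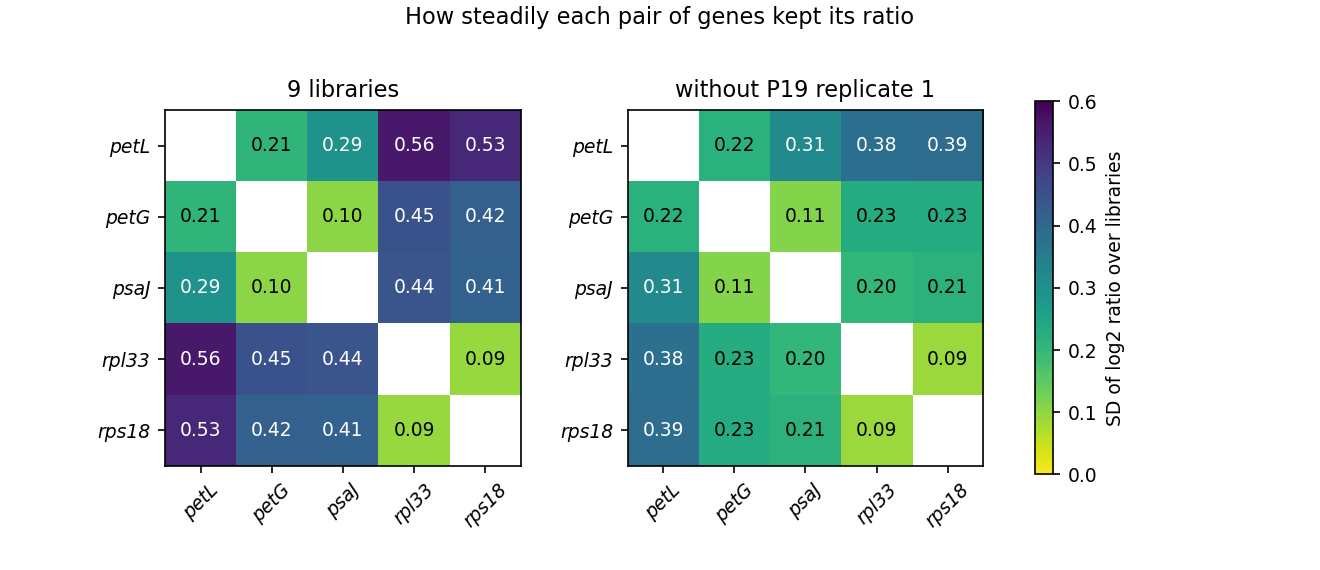
SD of the log2 ratio for each pair of the 5 genes over 9 libraries (left) and without P19 replicate 1 (right), light for pairs that kept their ratio. The pairs petG with psaJ (0.10) and rpl33 with rps18 (0.09) are the lightest in both, and the dark block across the psaJ to rpl33 gap pales without that library.

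Outside the 5, the rows that varied most like each gene were found with this measure. For petG they were psbK (0.091), psbI (0.095) and psaI (0.10), and for psaJ they were psbI (0.096), psbK (0.096) and petN (0.096), all short genes of photosynthetic complexes. For petL they were psbA (0.23), psbL (0.26) and psbF (0.27), so no row outside the 5 was as close to petL as petG (0.21). For rpl33 they were rbcL (0.13), psbN (0.14) and atpE (0.15), and for rps18 they were rbcL (0.13), ycf3 (0.13) and atpH (0.14). The rbcL gene encodes the large subunit of Rubisco, the carbon-fixing enzyme.

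The minus-strand tRNA rows between petG and psaJ followed psaJ more closely than petL. The SD of the log2 ratio was 0.16 for trnP with psaJ, 0.21 with petG and 0.37 with petL, and for trnW it was 0.25, 0.31 and 0.46. For the counting, a strand setting was not given in the sources used here; without it, reads of a plus-strand precursor and of these tRNAs cannot be told apart.

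The other genes listed with the same complexes passed no test in the vector comparisons. Of the 4 other cytochrome b6f genes, 1 lay above P19 and 3 below with pMDC32, with a median log2 difference of -0.16, and likewise with pGWB2 (-0.17). With pMDC32 petA had 0.083, petB -0.15, petD -0.16 and petN -0.31. Between the vectors these 4 differed by -0.02 to 0.03, where petL had -0.55. The photosystem I list held 6 genes, with ycf3 and ycf4 beside the psa genes, and 4 lay above P19 and 2 below for each vector. With pMDC32, psaA (0.24), psaB (0.20), ycf3 (0.0049) and ycf4 (0.25) lay above, and psaC (-0.28) and psaI (-0.32) below. Of the 19 other ribosomal protein genes, 14 lay above P19 with pMDC32 (median 0.19) and 13 with pGWB2 (median 0.17), and the values of rpl20 next to rps18 were -0.03 and -0.12. By edgeR's test, 0 rows of these lists had an adjusted p under 0.05 in any of the 3 comparisons, as for all plastid rows.

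The labelled day was not used to choose the genes and was tested. None of the 5 passed over all 9 libraries, with 0 of 105 plastid rows called (0%), 12 rows at an unadjusted p under 0.05, 2 rows called by DESeq2 and 0 by limma-voom. Libraries labelled 2 dpi minus those labelled 3 dpi gave log2 differences of 0.35 for petL (SE 0.18, adjusted p = 0.296), 0.34 for petG (SE 0.20, adjusted p = 0.318) and 0.45 for psaJ (SE 0.19, adjusted p = 0.296), from edgeR. Those of rpl33 and rps18 were -0.04 (SE 0.11, adjusted p = 0.852) and -0.09 (SE 0.11, adjusted p = 0.614). Without P19 replicate 1 the first 3 were 0.087, 0.039 and 0.16, and with lane as covariate 0.10, 0.071 and 0.20. Over 17 alternatives per gene the adjusted p ran from 0.200 to 0.998 and none passed.

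The ratios of neighbours did not pass for day either. The psaJ to petG log2 ratio averaged 1.99 at 2 dpi and 1.88 at 3 dpi, and was highest in the 2 dpi library of each group. That difference of 0.11 had p = 0.037 by an exact permutation test, two-sided, the smallest that 27 arrangements of the day within groups allow, and 0.148 adjusted over the 4 neighbouring pairs. The petG to petL ratio differed by -0.0055 between days (exact permutation p = 0.926, adjusted 0.926), rpl33 to psaJ by -0.47 (p = 0.148, adjusted 0.296; -0.17 without P19 replicate 1) and rps18 to rpl33 by -0.056 (p = 0.481, adjusted 0.642).

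The day difference was also compared between the editor groups and P19, where 2 dpi is 1 library, replicate 1, already seen to be high in petL, petG and psaJ. That library also came from lane 8, and P19 replicates 2 and 3 from lane 4. The comparison therefore sets that library and its lane apart as much as the day, and these cannot be told apart. It is no independent test of a day difference that depends on the editor. In the editor groups the log2 differences of 2 dpi from 3 dpi were 0.064 for petL (SE 0.13), 0.016 for petG (SE 0.15) and 0.14 for psaJ (SE 0.15), and in P19 they were 0.86 (SE 0.18), 0.93 (SE 0.20) and 1.01 (SE 0.21). The day difference in the editor groups minus that in P19 was -0.80 for petL (adjusted p = 0.0130), -0.92 for petG (adjusted p = 0.0127) and -0.88 for psaJ (adjusted p = 0.0166), from the interaction term of the edgeR fit. For rpl33 it was 0.03 (adjusted p = 0.933) and for rps18 -0.14 (adjusted p = 0.604). These 3 of 5 genes stand beside 40 of 105 plastid rows called (38.1%), of which 17 were lower (16.2%) and 23 higher (21.9%). The neighbours psbE, psbF, psbL and psbJ upstream also passed in the lower direction, at -0.82 to -0.88. So did petN of the b6f genes (-1.27, 1 of 4), and psaC and psaI of the photosystem I list (2 of 6, with ycf4 higher). Of the 19 other ribosomal protein genes, 9 passed in the higher direction and 1 in the lower, with a median of 0.62.

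The calls also needed both editor libraries labelled 2 dpi: without pGWB2 replicate 1 the adjusted p-values of petL, petG and psaJ were 0.0616, 0.0616 and 0.0653, and without pMDC32 replicate 1 they were 0.0842, 0.0892 and 0.109. Without pMDC32 replicate 3 that of psaJ was 0.0597. The differences themselves moved less. With 1 library left out they ran from -0.93 to -0.68 for petL, -1.09 to -0.78 for petG and -1.10 to -0.73 for psaJ. P19 replicate 1 could not be left out. Scaling mattered too: the median plastid row was at 0.056 with TMM and 0.43 with library totals, and with totals the values were -0.43, -0.55 and -0.51 (adjusted p = 0.185, 0.110 and 0.103).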

How the data were processed

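The authors deposited raw counts of reads per gene row for 9 leaf libraries made from rRNA-depleted total RNA by a directional protocol, per the labels' protocols. Tools listed in the submitters' processing notes, without roles, are HISAT2 2.2.1, featureCounts 2.0.1, DESeq2 1.42.0, Trim Galore 0.6.10 and FastQC 0.12.1. Build, strand setting and handling of multi-mapped reads were not given in the sources used here. This deposited table also gives row lengths, and its column names give the lane.

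The table's 106 rows (105 plastid rows and the editor transgene) were fitted with edgeR 4.0.16 in R 4.3.3 (TMM, filterByExpr, quasi-likelihood test, two-sided), with p-values adjusted by Benjamini-Hochberg over all rows at 0.05. Since the table is almost wholly plastid, levels are relative to plastid RNA. All 9 libraries entered each fit; the day fits had group as a term. The scripts were checked on simulated counts. Alternatives used DESeq2 1.42.0, limma-voom (limma 3.58.1), other scalings, each library left out, lane, day and replicate terms. Libraries of a group differed by more than counting error (1350 or more as chi-square over degrees of freedom), and the series text calls them biological replicates, though p-values measure only the spread between these libraries. Intervals on counts cover counting error only.

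The 5 genes, the lists and the tests were chosen with earlier results of these data known. Named beside the 5 genes were their map neighbours, the other b6f genes, the other photosystem I genes with ycf3 and ycf4, and up to 4 ribosomal protein genes. For each of the 5, the 3 rows with the smallest SD of the log2 ratio were named too.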

Additional observations from a re-analysis of the deposited data

Results flagged for a closer look

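The log2 day difference (2 dpi minus 3 dpi) in the editor groups minus that in P19 was -0.80 for petL, -0.92 for petG and -0.88 for psaJ. By edgeR's test these 3 had an adjusted p under 0.05, and rpl33 and rps18 did not. The same contrast called 40 of 105 plastid rows (38.1%), 17 of them lower (16.2%), so the calls are not particular to these genes. The P19 side at 2 dpi is replicate 1 alone, which also enters the group differences that chose the genes, so these values describe that library and do not show a day difference that depends on the editor. Over 15 alternatives the value ran from -1.07 to -0.43 for petL, from -1.18 to -0.55 for petG and from -1.14 to -0.51 for psaJ, and the edgeR, DESeq2 or limma-voom adjusted p from 0.00125 to 0.185, from 1.6e-04 to 0.110 and from 1.7e-04 to 0.109. It passed in 12, 12 and 11 of the 15. The alternative without P19 replicate 1 could not be fitted, since P19 then has no library labelled 2 dpi.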

How the results depend on the processing

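Rows called changed in few settings. DESeq2 called 1 row (rpl33) for pMDC32 and 1 (rpl33) for pGWB2 against P19, and 2 for day (0 of the 5 genes). A fit of the 2 editor groups alone called 1 row (petL) between vectors. As these contrasts chose petL and rpl33, such calls are counts, not tests of the genes. Lane as covariate called 49 rows (pMDC32 against P19) and 40 (between vectors), petL, petG and psaJ among both; it sets pMDC32 against P19 within lane 8, where P19 replicate 1 is the 1 control. For day, lane called 3 rows and library totals 2. Leaving out 1 library called 0 to 2 rows for day, and 0 (without pGWB2 replicate 1) to 57 (without P19 replicate 3) for the day difference between editor groups and P19, where 0 to 3 of the 5 genes passed, 0 with library totals. Values near 0 changed sign: rpl33 for day was 0.033 without psbA and -0.070 to 0.039 with 1 library left out. For the day difference between editor groups and P19, rpl33 was -0.027 (RLE), -0.071 (without psbA), -0.24 (without rRNA and tRNA rows), -0.027 (DESeq2) and -0.062 to 0.072 with 1 library left out, and rps18 was 0.23 with library totals. The petG to petL ratio for day was -0.045 to 0.046. The share of libraries with petL above rps18 was 11.1% without length correction and 66.7% with 150 nt added. At 3 dpi alone the SD of psaJ with rpl33 was 0.22 (0.20 without P19 replicate 1) and the median of all pairs 0.24. The cause of these changes was not tested. Replicate numbers did not consistently pair the samples: 4 of 9 correlations of deviations were over 0.1, and they ran from -0.52 to 0.72. The 0.72 was that of replicate 1 in pMDC32 and pGWB2, the editor libraries labelled 2 dpi. Of the 9 libraries, 3 were closest to their own number. With the replicate block, pMDC32 minus P19 called 0 rows and petL was -0.78. The day difference between editor groups and P19 could not be fitted with lane as covariate.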
